A study of Homo sapiens with 15 samples.

Results

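The genes of the ATP-dependent chromatin remodelling complexes were examined in OCI-AML5, an established human acute myeloid leukaemia cell line. They were chosen by gene symbol alone: entries whose symbol begins with SMARC, CHD1 to CHD9, ARID1 to ARID5 or INO80, together with SRCAP, EP400, BAZ1A, BAZ1B, BAZ2A, BAZ2B, BPTF, PBRM1, BRD7, BRD9, ATRX and HELLS. The rule gave 50 genes of the 19604 protein-coding entries, and all 50 stood in both expression tables. RNA sequencing covered 15 libraries in 5 groups of 3. Cells were exposed to 1000 nM ARV-825 for 4 h, to 1000 nM OTX015 for 4 h, or left untreated as control. In a second experiment cells carried an shRNA against RUNX1 or a non-targeting shRNA (shNT) for 72 h. The medium of all groups was Alpha MEM containing 20% serum and the cytokine GM-CSF at 10 ng/mL, and the series' design text calls the replicates biologic. A vehicle is not named for the untreated controls, and the labels do not state the number of shRNA sequences. OTX015 occupies the bromodomains of BET proteins, which read acetylated histones. ARV-825 carries an OTX015-type BET ligand linked to a second ligand, for the ubiquitin ligase subunit cereblon, so that bound BET proteins are degraded. RUNX1 encodes a transcription factor needed to form blood cells.

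Remodelling complexes use an ATPase of the SNF2 family to slide, eject or exchange nucleosomes. The BAF (SWI/SNF) complexes open enhancers and promoters, the ISWI complexes space nucleosomes, NuRD couples a CHD ATPase to histone deacetylases, and the INO80, SRCAP and TIP60 complexes exchange histone variants. BAF subunits and their paralogues are exchanged during blood cell differentiation, and leukaemia cells are known to depend on the ATPase SMARCA4.

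The values are FPKM, a level per transcript length and library size, quantile normalised by the authors separately in the drug and the shRNA table. The summed FPKM per library ran from 554570 to 656995, and the read depth is unknown. LYZ, a lysozyme of myeloid cells, averaged 366 to 568 FPKM over the groups, and 10 to 12 of the 15 myeloid markers reached 1 FPKM in each group. ANPEP, a myeloid surface protein gene, was under 0.1 FPKM in every group, and so was the granule protease gene ELANE except with shNT, at 0.353 FPKM. The receptor gene KIT was at 0.2997 FPKM with RUNX1 shRNA and 0.342 FPKM with shNT, and under 0.1 FPKM in the drug experiment. The myeloid marker CD14 averaged 0.275 FPKM with RUNX1 shRNA, the lowest group, to 1.00 FPKM in control, the highest. Of other lineages, no epithelial or fibroblast marker reached 1 FPKM, while the NK cell marker NCAM1 averaged 10.7 to 19.6 FPKM, the B cell marker CD79A 2.36 to 5.35 FPKM and the erythroid marker EPOR 2.87 to 3.97 FPKM. The T and NK cell marker CD247 averaged 0.289 FPKM with OTX015, the lowest group, to 2.06 FPKM with ARV-825, the highest. RUNX1 had 37.2, 42.9 and 36.0 FPKM with RUNX1 shRNA and 69.8, 72.2 and 69.8 FPKM with shNT, a log2 change of -0.85 (limma adjusted p = 3.71e-05). The titles of those RUNX1 shRNA libraries name Runx3, whose RNA stood at 28.4 ± 0.771 FPKM with RUNX1 shRNA and 27.0 ± 1.80 FPKM with shNT (SD, n = 3 each). MYC, a BET-dependent gene, averaged 23.0 FPKM with ARV-825, 113 FPKM with OTX015 and 288 FPKM in control. In RNA of whole cultures, fewer cells of a type and less RNA per cell cannot be told apart.

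Most remodelling genes were well expressed. Of the 50, 46 passed the filter for testing, a mean of 1 FPKM or more over all libraries of the experiment, in both experiments. The other 4 were CHD5, a CHD ATPase known mainly from neurons, SMARCA1, the ISWI paralogue of SMARCA5, and the ARID genes ARID3C and ARID5B. Between 34 and 39 members per group averaged 10 FPKM or more. The median member stood at 18.4 FPKM with ARV-825, 19.9 FPKM with OTX015 and 18.4 FPKM in control, and at 21.3 FPKM with RUNX1 shRNA and 18.9 FPKM with shNT. Per transcript length, the highest in ARV-825-treated cells was CHD4, the NuRD ATPase, at 87.7 ± 4.45 FPKM, followed by SMARCA2 at 84.2 ± 7.32 FPKM, and these neighbours did not differ beyond their spread. CHD4 also led in OTX015-treated cells at 93.4 ± 5.19 FPKM. In control cells SMARCA2, at 108 ± 2.18 FPKM, and SMARCA4, at 100.3 ± 7.21 FPKM, stood highest and lay within their summed SDs. In the shRNA experiment SMARCA4 led with RUNX1 shRNA at 122 ± 0.955 FPKM, and SMARCE1 with shNT at 119 ± 1.13 FPKM, next to SMARCA4 at 115 ± 1.99 FPKM.

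A gene was called when limma on log2(FPKM + 1) gave an adjusted p of at most 0.05 over all tested genes. After 4 h of ARV-825, 23 of the 46 tested remodelling genes fell and 9 rose. Over all 10819 tested genes the shares were 38.4% down and 35.8% up, and the members' own shares were 50.0% and 19.6%. The 32 members called in either direction were 69.6% of those tested, against 74.2% of all genes. Their median log2 change was -0.21, and that of all genes was -0.008. By at least 0.5 on the log2 scale, 12 members were called (26.1%), against 38.7% of all genes.

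With OTX015 the remodelling genes split evenly, 15 up and 16 down. The members' shares of 32.6% up and 34.8% down lie near the 36.1% and 33.5% of all genes. Of all tested genes of 6000 bases or more in their longest transcript, 43.0% were up and 28.4% down with OTX015, and of the 26 members that long 8 were up and 8 down. The part of length in these calls was not tested. The 31 called were 67.4% of those tested, against 69.6% of all genes, and 11 were called by at least 0.5 (23.9%), against 31.7%. The members had a median change near 0 (0.0024), and the median of all genes was 0.032. Both drug comparisons use the same 3 control libraries, so their values are given side by side and not as independent evidence of each other.

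ARV-825 set directly against OTX015 gave 26 members lower and 5 higher. The members' shares were 56.5% lower and 10.9% higher, against 33.4% and 24.7% of all tested genes. The 31 called were 67.4% of the tested members, against 58.1% of all genes, and 8 were called by at least 0.5 (17.4%), near the 18.7% of all genes. The median member difference was -0.21 and that of all genes -0.040. Transcript length moved with this comparison. The median longest transcript was 6407 bases for the members and 3629 bases for all tested genes, and 26 of the 46 members reached 6000 bases. Of all 2028 tested genes that long, 39.5% were lower and 17.7% higher with ARV-825 than with OTX015, and of those 26 members 15 were lower and 2 higher. The part of length in the members' differences was not tested. Under median-ratio rescaling of the libraries 19 members were lower and 5 higher.

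**Figure D1:**
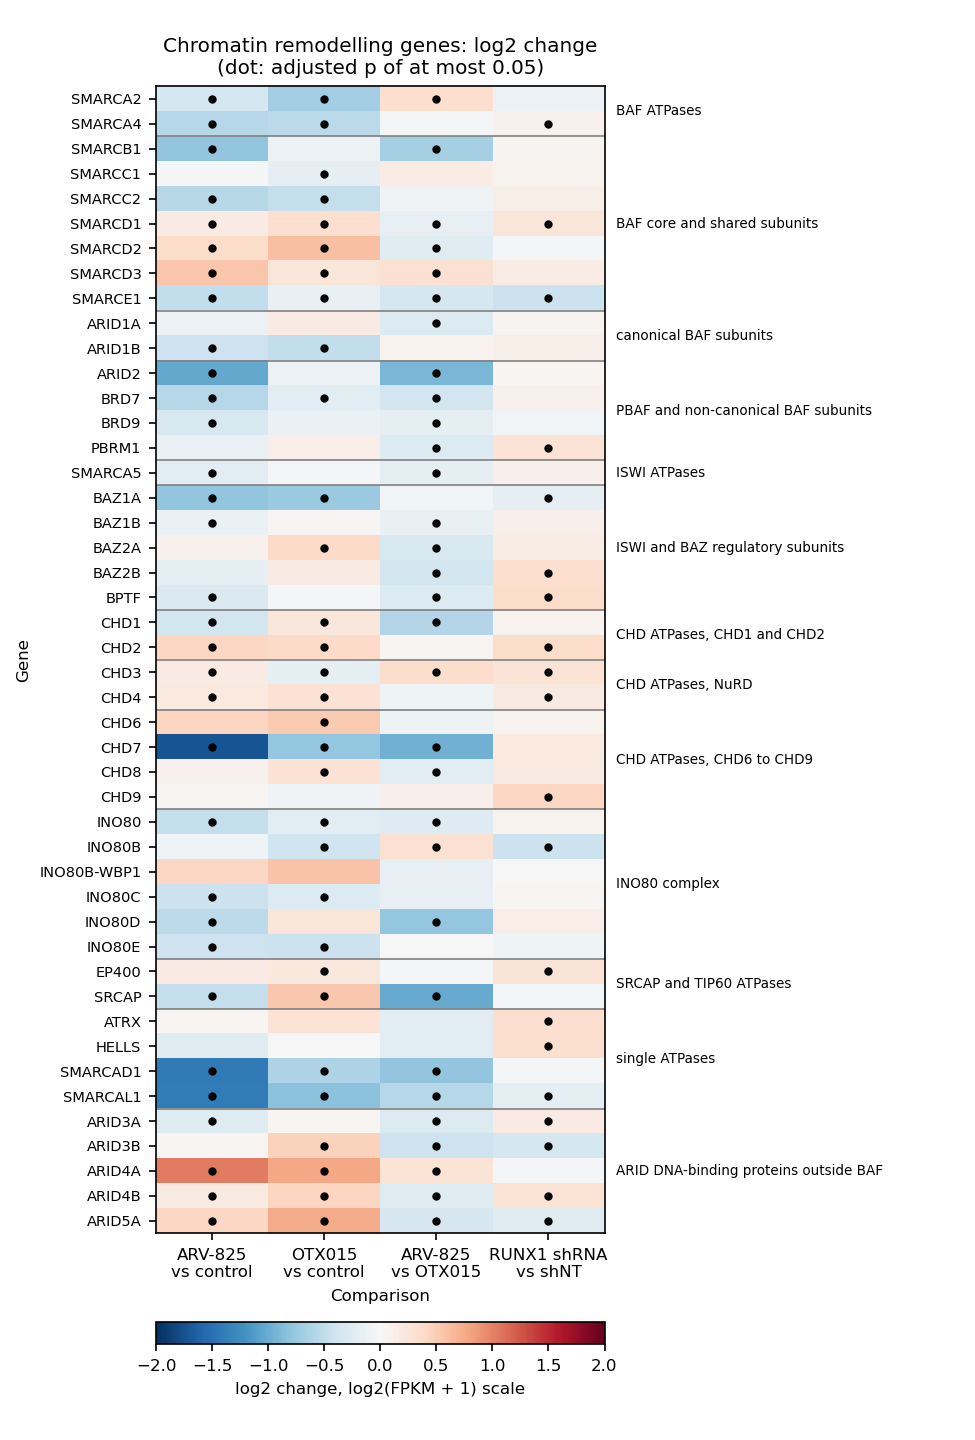
Log2 change of the 46 tested remodelling genes (rows, grouped by complex or role) in the 4 comparisons (columns), with red for higher and blue for lower in the first-named group and a dot for an adjusted p of at most 0.05. With ARV-825 against control 23 members are called down and 9 up, with RUNX1 shRNA against shNT 6 down and 14 up.

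Both catalytic subunits of BAF fell with both drugs. SMARCA4 (BRG1) had 69.7, 69.2 and 61.8 FPKM with ARV-825, 68.6, 68.2 and 68.5 FPKM with OTX015 and 92.3, 106 and 102 FPKM in control. Every treated library lay below every control library. The log2 changes were -0.58 ± 0.060 (SE, adjusted p = 6.31e-06) with ARV-825 and -0.54 ± 0.060 (adjusted p = 1.36e-05) with OTX015, and the drugs were not called different (95% interval of the difference -0.17 to 0.098). SMARCA2 (BRM), its paralogue, had 83.4, 77.3 and 91.8 FPKM with ARV-825, 64.4, 66.2 and 67.3 FPKM with OTX015 and 107, 106 and 110.1 FPKM in control. Here the OTX015 libraries were lowest and the ARV-825 libraries lay between them and the controls. SMARCA2 changed by -0.35 ± 0.057 with ARV-825 (adjusted p = 0.00018) and -0.70 ± 0.057 with OTX015 (adjusted p = 1.34e-06), and stood 0.34 higher with ARV-825 than with OTX015 (adjusted p = 0.000451).

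The core and shared BAF subunits divided by subunit, with 3 down and 3 up of 7 in each drug comparison. Over all tested genes 38.4% were down and 35.8% up with ARV-825, and 33.5% down and 36.1% up with OTX015. SMARCB1, a core subunit lost in rhabdoid tumours, had 32.6, 31.3 and 30.8 FPKM with ARV-825, 53.2, 51.99 and 47.03 FPKM with OTX015 and 51.6, 56.5 and 57.03 FPKM in control. The ARV-825 libraries stood apart from both other groups, whose values overlapped. SMARCB1 fell by 0.78 on the log2 scale with ARV-825 (SE 0.057, adjusted p = 3.86e-07), while its change with OTX015 was -0.12 (adjusted p = 0.0915), called without control replicate 1 (adjusted p = 0.0311) and under median-ratio rescaling (adjusted p = 0.0235). In the annotation used, 17.7% of its exon bases lie under exons of DERL3 on the other strand, and the strand of the reads is not stated. Other members overlap the other strand too, among them INO80E (23.5%), SMARCD3 (13.8%), SMARCA5 (13.5%) and BAZ1A (12.4%). With genes of the same strand SMARCE1 shares 19.8%, ARID4B 14.5% and CHD2 10.2% of exon bases. SMARCE1, an HMG-box subunit, averaged 63.8 ± 1.09 FPKM with ARV-825, 81.7 ± 1.67 FPKM with OTX015 and 90.3 ± 1.68 FPKM in control, with no overlap between groups and changes of -0.49 and -0.14 for ARV-825 and OTX015. The scaffold gene SMARCC2 averaged 18.8 ± 1.33 FPKM with ARV-825, 19.7 ± 1.29 FPKM with OTX015 and 27.9 ± 1.75 FPKM in control, changes of -0.55 (adjusted p = 2.74e-05) and -0.48 (adjusted p = 9.29e-05). Its partner SMARCC1 changed by -0.041 with ARV-825 (adjusted p = 0.604) and -0.18 with OTX015 (adjusted p = 0.0336). The OTX015 call of SMARCC1 was lost without OTX015 replicate 1 or 2 or control replicate 1 or 2 (adjusted p = 0.0552 to 0.132). With no filter on low values or with a replicate block it was lost too (adjusted p = 0.0662 and 0.0543).

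All 3 SMARCD paralogues, of which 1 is built into each BAF complex, rose with both drugs. SMARCD2, known from granulocyte maturation, had 56.3, 53.9 and 54.9 FPKM with ARV-825, 65.4, 65.9 and 63.7 FPKM with OTX015 and 40.5, 44.5 and 42.96 FPKM in control. Its changes were 0.36 ± 0.043 (SE, adjusted p = 1.93e-05) for ARV-825 and 0.60 ± 0.043 (adjusted p = 5.49e-07) for OTX015. SMARCD3, known from heart and neurons, had 25.05, 23.8 and 22.1 FPKM with ARV-825, 19.3, 19.4 and 18.2 FPKM with OTX015 and 15.7, 15.2 and 16.5 FPKM in control. Of the 3 paralogues it was the one higher with the degrader, with changes of 0.55 ± 0.058 (adjusted p = 6.54e-06) for ARV-825 and 0.25 ± 0.058 (adjusted p = 0.00259) for OTX015 and a difference of 0.30 (adjusted p = 0.00114). SMARCD1 rose by 0.16 with ARV-825 and 0.33 with OTX015. The 3 groups did not overlap in any of the 3 genes.

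**Figure D2:**
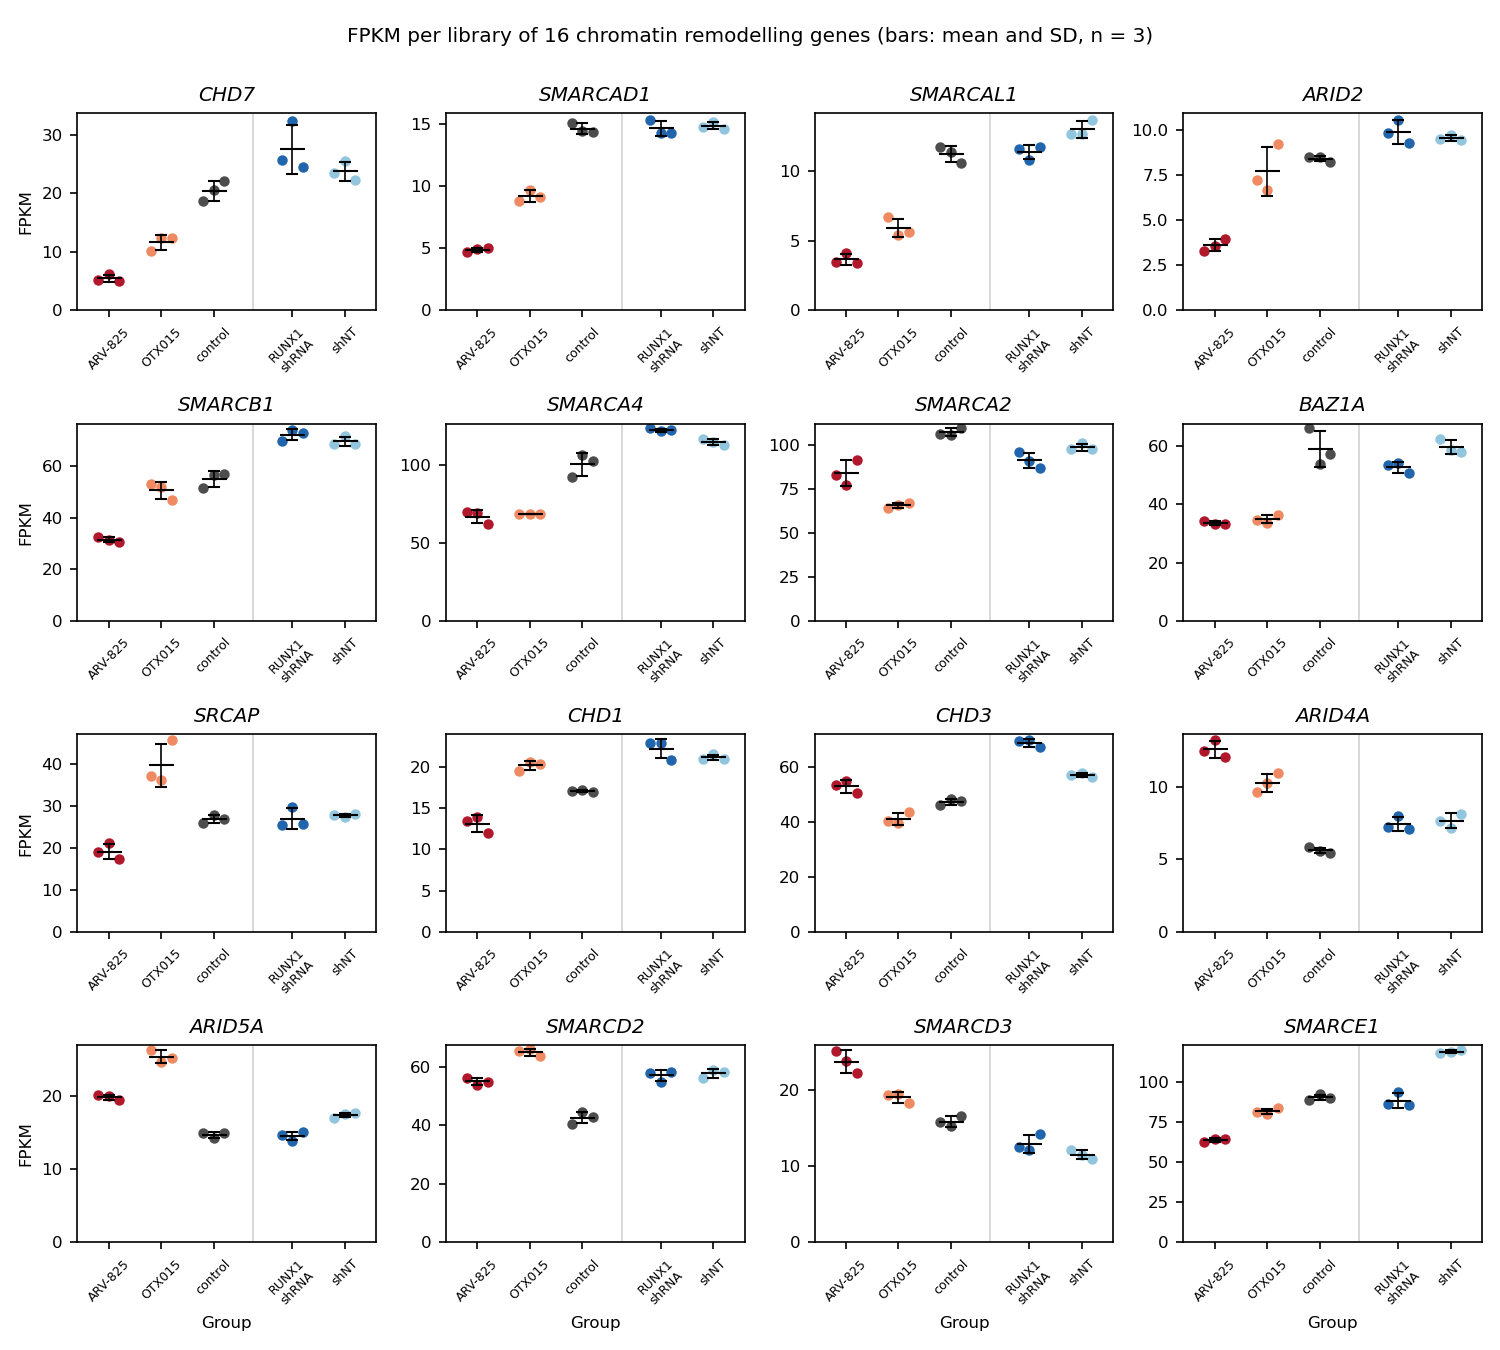
FPKM (vertical axes, from 0) of 16 remodelling genes in each library of the 5 groups, with the mean and SD of 3 libraries as bars. CHD7, SMARCAD1 and SMARCAL1 are lowest with ARV-825 and in between with OTX015, while SRCAP and CHD1 lie below control with ARV-825 and above it with OTX015.

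Among the subunits that tell the BAF types apart, 3 of the 4 of PBAF and non-canonical BAF fell with ARV-825 and 1 with OTX015. The shares of all tested genes that fell were 38.4% with ARV-825 and 33.5% with OTX015. ARID2, which defines PBAF, had 3.32, 3.59 and 3.98 FPKM with ARV-825, 7.26, 6.68 and 9.25 FPKM with OTX015 and 8.53, 8.51 and 8.27 FPKM in control. The OTX015 libraries scattered around the control values, and all ARV-825 libraries lay below both. ARID2 changed by -1.03 ± 0.10 with ARV-825 (SE, adjusted p = 4.55e-06), by -0.12 ± 0.10 with OTX015 (adjusted p = 0.302, and -0.25 with adjusted p = 0.0233 without OTX015 replicate 3), and the drugs differed by -0.91 (adjusted p = 4.04e-05). BRD7, the PBAF bromodomain subunit, averaged 25.7 ± 2.09 FPKM with ARV-825, 33.3 ± 2.97 FPKM with OTX015 and 38.7 ± 1.02 FPKM in control, changes of -0.58 (adjusted p = 2.64e-05) and -0.21 (adjusted p = 0.021). Its OTX015 call was lost without OTX015 replicate 3 (adjusted p = 0.0814) or control replicate 2 (adjusted p = 0.0686), and 42.4% of its exon bases lie under exons of the other strand. BRD9, of non-canonical BAF, fell by 0.32 with ARV-825 and changed by -0.13 with OTX015 (adjusted p = 0.0598, and 0.0244 without OTX015 replicate 1 and 0.0256 under median-ratio rescaling). PBRM1, the polybromo subunit, was not called against control with either drug, and its ARV-825 minus OTX015 difference was -0.27 (adjusted p = 0.0138, and 0.0501 without ARV-825 replicate 1 and 0.0533 without OTX015 replicate 3). Without ARV-825 replicate 2 it was called down against control (adjusted p = 0.0229). Of the canonical pair, ARID1B fell with both drugs, by 0.42 with ARV-825 and 0.49 with OTX015 (adjusted p = 0.000103 and 4.19e-05). ARID1A was called with neither, at -0.11 (adjusted p = 0.181) for ARV-825 and 0.16 (adjusted p = 0.0649) for OTX015. It was called down with ARV-825 without ARV-825 replicate 2 (adjusted p = 0.0251). With OTX015 it was called up in a fit of the 2 groups alone (adjusted p = 0.0304) and without ARV-825 replicate 2 or 3 (adjusted p = 0.0282 and 0.0422).

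The BAF partner subunits outside the rule were also mixed, 5 up and 6 down of 13 tested with ARV-825 and 6 up and 5 down with OTX015. The shares of all tested genes were 35.8% up and 38.4% down with ARV-825, and 36.1% up and 33.5% down with OTX015. BCL11A, a zinc finger protein of B cell and globin control found with BAF, averaged 2.30 ± 0.688 FPKM with ARV-825, 3.08 ± 0.341 FPKM with OTX015 and 20.9 ± 0.472 FPKM in control (log2 changes of -2.75 and -2.43 for ARV-825 and OTX015, adjusted p = 2.29e-08 and 8.44e-08). BCL7A fell by 1.26 with ARV-825, and SS18L1, the neuronal paralogue of SS18, rose by 1.25 with ARV-825 and 0.76 with OTX015.

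In the ISWI family BAZ1A fell with both drugs, and the ATPase gene SMARCA5 with ARV-825. BAZ1A (ACF1), the partner of SMARCA5 in nucleosome spacing, had 34.3, 33.3 and 33.2 FPKM with ARV-825, 34.6, 33.6 and 36.4 FPKM with OTX015 and 65.8, 53.7 and 57.1 FPKM in control. The drug groups lay together, far below the controls. Its changes were -0.79 ± 0.066 (SE, adjusted p = 1.26e-06) and -0.74 ± 0.066 (adjusted p = 3.02e-06) for ARV-825 and OTX015, and their difference had a 95% interval of -0.20 to 0.095. SMARCA5 (SNF2H) averaged 18.95 ± 1.26 FPKM with ARV-825, 21.5 ± 0.591 FPKM with OTX015 and 22.2 ± 0.591 FPKM in control, a fall of 0.22 with ARV-825 (adjusted p = 0.00341) and a change of -0.046 with OTX015 (adjusted p = 0.469). BPTF, the large NURF subunit that reads methylated histones, and BAZ1B, of the WICH complex, fell with ARV-825 by 0.30 and 0.14. The call of BPTF was lost without ARV-825 replicate 3 (adjusted p = 0.0741) or control replicate 2 (adjusted p = 0.0671), and that of BAZ1B without any 1 of 6 libraries, ARV-825 replicates 1 and 3, OTX015 replicate 1 and the 3 controls (adjusted p = 0.0508 to 0.126). BAZ1B also lost it under median-ratio rescaling, with no filter on low values and with a replicate block (adjusted p = 0.087, 0.052 and 0.0708). BAZ2A, which silences ribosomal DNA in the NoRC complex, rose by 0.38 with OTX015 (adjusted p = 0.00809), and BAZ2B was called with neither drug, but down with ARV-825 without control replicate 3 (-0.33, adjusted p = 0.0403). Of 7 tested ISWI partners, 3 rose and 3 fell with ARV-825, beside 35.8% up and 38.4% down of all tested genes. With OTX015 2 of these partners rose and 3 fell, beside 36.1% up and 33.5% down of all. The largest change was that of CHRAC1, a histone-fold partner of ACF, at 13.8 ± 1.17 FPKM with ARV-825, 20.0 ± 0.942 FPKM with OTX015 and 42.4 ± 2.68 FPKM in control (-1.55 and -1.04 for ARV-825 and OTX015).

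CHD7 showed the largest fall of the 46 genes with ARV-825. CHD7, an ATPase of enhancers mutated in CHARGE syndrome, had 5.12, 6.21 and 5.09 FPKM with ARV-825, 10.1, 12.4 and 12.4 FPKM with OTX015 and 18.7, 20.5 and 22.1 FPKM in control. The 3 groups were apart, with OTX015 between ARV-825 and control. The log2 changes were -1.73 ± 0.097 (SE, adjusted p = 5.84e-08) with ARV-825 and -0.77 ± 0.097 (adjusted p = 4e-05) with OTX015, and the drugs differed by -0.96 (adjusted p = 2.01e-05). Of its relatives, CHD8, which binds the insulator factor CTCF, rose by 0.29 with OTX015 (adjusted p = 0.00346) and was at 0.082 with ARV-825 (adjusted p = 0.303), and CHD9 was called with neither. CHD6 averaged 6.03 ± 2.03 FPKM with ARV-825, 6.40 ± 1.46 FPKM with OTX015 and 4.10 ± 0.418 FPKM in control, with overlapping ARV-825 and control libraries. It rose by 0.52 with OTX015 (adjusted p = 0.0309), a call lost without OTX015 replicate 3 or control replicate 2 or 3 (adjusted p = 0.0629 to 0.122). CHD6 also lost this call with no filter on low values and with a replicate block (adjusted p = 0.0823 and 0.0559). With ARV-825 CHD6 was called without ARV-825 replicate 3 (0.63, adjusted p = 0.00718) or OTX015 replicate 3 (adjusted p = 0.0481).

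Of the CHD ATPases tied to active genes, CHD1, which binds the methylated histone tail of active promoters, moved in opposite directions. CHD1 had 13.4, 13.9 and 11.9 FPKM with ARV-825, 19.5, 20.6 and 20.4 FPKM with OTX015 and 17.1, 17.2 and 16.98 FPKM in control. All ARV-825 libraries lay below and all OTX015 libraries above the controls. The changes were -0.36 ± 0.059 (SE, adjusted p = 0.000212) with ARV-825 and 0.23 ± 0.059 (adjusted p = 0.00559) with OTX015, and the difference was -0.59 (adjusted p = 1.92e-05). CHD2 rose by 0.41 with ARV-825 and 0.38 with OTX015 (adjusted p = 0.00795 and 0.0142), and its OTX015 call was lost without OTX015 replicate 3 (adjusted p = 0.0551).

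The NuRD ATPases CHD3 and CHD4 rose modestly with ARV-825 and parted with OTX015. CHD4 had 87.7, 92.1 and 83.2 FPKM with ARV-825, 90.00, 90.8 and 99.4 FPKM with OTX015 and 78.2, 75.3 and 75.2 FPKM in control, all treated libraries above the controls, with rises of 0.20 and 0.29. CHD3 had 53.5, 55.2 and 50.6 FPKM with ARV-825, 40.3, 39.7 and 43.7 FPKM with OTX015 and 46.3, 48.4 and 47.8 FPKM in control. The ARV-825 libraries lay above and the OTX015 libraries below the controls. CHD3 rose by 0.16 with ARV-825 (adjusted p = 0.013) and fell by 0.20 with OTX015 (adjusted p = 0.00375). The ARV-825 call was lost without ARV-825 replicate 2 (0.13, adjusted p = 0.0502). In the annotation 46.9% of the exon bases of CHD4 lie under exons of another gene of the same strand, and its separate value is uncertain. Of the 13 NuRD partners, 9 were called down and 3 up with ARV-825, where 38.4% of all tested genes were down and 35.8% up. With OTX015 7 were down and 2 up, where 33.5% of all were down and 36.1% up. The zinc finger subunit gene ZMYND8 averaged 1.60 ± 0.286 FPKM with ARV-825, 2.46 ± 0.416 FPKM with OTX015 and 8.53 ± 0.158 FPKM in control, MTA3 fell by 1.44 with ARV-825 and 1.12 with OTX015, and the scaffold gene GATAD2B rose by 0.82 with ARV-825 and 1.12 with OTX015. The median log2 changes of the NuRD partners were -0.25 with ARV-825 and -0.16 with OTX015.

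SRCAP, the ATPase that deposits the variant histone H2AZ, had the widest gap between the drugs. SRCAP had 18.9, 21.00 and 17.3 FPKM with ARV-825, 37.2, 36.1 and 45.5 FPKM with OTX015 and 25.8, 27.8 and 26.8 FPKM in control. All ARV-825 libraries lay below, and all OTX015 libraries above, every control library. It fell by 0.47 with ARV-825 (SE 0.089, adjusted p = 0.000607) and rose by 0.54 with OTX015 (SE 0.089, adjusted p = 0.000282), a difference of -1.01 (adjusted p = 8.99e-06). In the annotation 74.1% of its exon bases lie under exons of other genes of the same strand, so reads may be split between them. EP400, the ATPase of the TIP60 complex, averaged 15.3 ± 1.10 FPKM with ARV-825, 15.8 ± 1.08 FPKM with OTX015 and 13.6 ± 1.08 FPKM in control. It rose by 0.20 with OTX015 (adjusted p = 0.031), lost without OTX015 replicate 3 or control replicate 2 or 3 (adjusted p = 0.0707 to 0.125). EP400 also lost this call under median-ratio rescaling, with no filter on low values and with a replicate block (adjusted p = 0.0751, 0.0554 and 0.0552). Its change with ARV-825 was 0.16 (adjusted p = 0.0724), called without ARV-825 replicate 3 (adjusted p = 0.0308) or control replicate 1 (adjusted p = 0.0323).

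The INO80 complex genes that were called against control fell, 4 of 6 in each drug comparison. Of all tested genes, 38.4% were down with ARV-825 and 33.5% with OTX015. INO80, the ATPase, had 6.54, 6.24 and 4.89 FPKM with ARV-825, 7.16, 7.57 and 6.74 FPKM with OTX015 and 8.22, 8.66 and 8.74 FPKM in control. All treated libraries lay below the controls, and the ARV-825 libraries below the OTX015 libraries. The ATPase gene fell by 0.48 with ARV-825 (adjusted p = 0.000727) and 0.23 with OTX015 (adjusted p = 0.0469), and the OTX015 call was lost without any 1 of the 3 OTX015 or 3 control libraries (adjusted p = 0.0515 to 0.133). That call was also lost with a pseudocount of 0.1, no filter on low values or a replicate block (adjusted p = 0.0515, 0.0844 and 0.0516). INO80E changed by -0.42 with ARV-825 and -0.42 with OTX015, with a 95% interval of the difference of -0.089 to 0.11. INO80C fell by 0.44 and 0.27 for ARV-825 and OTX015, and the OTX015 call was lost without OTX015 replicate 2 (adjusted p = 0.0514) or control replicate 2 (adjusted p = 0.0501). INO80D had 1.49, 2.16 and 1.20 FPKM with ARV-825, 2.77, 2.89 and 4.87 FPKM with OTX015 and 3.19, 2.60 and 2.45 FPKM in control. It fell by 0.53 with ARV-825 (adjusted p = 0.0199), lost without ARV-825 replicate 1 or 3 or control replicate 1 (adjusted p = 0.0519 to 0.0736), and lay -0.77 from OTX015 (adjusted p = 0.00379). INO80D also lost the call against control with no filter on low values (adjusted p = 0.0534). INO80B fell by 0.40 with OTX015 (adjusted p = 0.00383). It shares exons with the readthrough entry INO80B-WBP1, and their separate values are uncertain. The readthrough entry was called with neither drug, but up without control replicate 3 in both comparisons (0.67 with ARV-825, adjusted p = 0.0153, and 0.85 with OTX015, adjusted p = 0.00537). With OTX015 it was also called in a fit of the 2 groups alone, with a pseudocount of 5 and without ARV-825 replicate 3 (adjusted p = 0.0419 to 0.0496).

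Of the 24 partner subunits of the INO80, SRCAP and TIP60 complexes, 19 fell and 3 rose with ARV-825, beside 38.4% down and 35.8% up of all tested genes, and 13 fell and 4 rose with OTX015, beside 33.5% and 36.1%. Their median log2 changes were -0.43 with ARV-825 and -0.25 with OTX015. KAT5, the TIP60 acetyltransferase, averaged 7.88 ± 0.180 FPKM with ARV-825, 18.0 ± 1.28 FPKM with OTX015 and 23.0 ± 2.40 FPKM in control, a change of -1.43 with ARV-825 (adjusted p = 3.61e-08). The acetyl-lysine reader YEATS4 fell by 1.17 and VPS72, a chaperone of the variant histone, by 1.10 with ARV-825 (adjusted p = 2.09e-08 and 9.05e-08). With OTX015 the largest were ACTR6 at -0.81, BRD8 at 0.80 and RUVBL1 at -0.67.

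With ARV-825 the single-subunit ATPases of DNA repair, SMARCAD1 and SMARCAL1, fell most after CHD7. SMARCAD1, which remodels chromatin behind replication forks and at DNA ends, had 4.71, 4.92 and 5.02 FPKM with ARV-825, 8.77, 9.72 and 9.12 FPKM with OTX015 and 15.1, 14.5 and 14.3 FPKM in control. The groups were tight and far apart, with OTX015 in between. SMARCAD1 fell by 1.41 with ARV-825 (SE 0.060, adjusted p = 8.38e-09) and 0.62 with OTX015 (adjusted p = 5.37e-06). SMARCAL1, an annealing helicase at stalled replication forks, had 3.48, 4.16 and 3.39 FPKM with ARV-825, 6.69, 5.44 and 5.67 FPKM with OTX015 and 11.7, 11.4 and 10.6 FPKM in control. It fell by 1.39 with ARV-825 (adjusted p = 1.6e-07) and 0.82 with OTX015 (adjusted p = 1.25e-05), again with no overlap between the 3 groups. By contrast ATRX, which loads a variant histone with DAXX, had 11.1, 12.6 and 9.21 FPKM with ARV-825, 11.2, 11.6 and 16.3 FPKM with OTX015 and 11.6, 10.01 and 9.97 FPKM in control, with overlap between all groups. HELLS, needed for DNA methylation of repeats, had 17.7, 24.2 and 13.3 FPKM with ARV-825, 17.9, 18.6 and 28.5 FPKM with OTX015 and 22.2, 21.3 and 20.6 FPKM in control. Their libraries overlapped and neither was called with either drug (adjusted p = 0.105 to 0.963). HELLS was called down with ARV-825 without ARV-825 replicate 2 (-0.45, adjusted p = 0.0395). ARV-825 replicate 2 and OTX015 replicate 3, the highest libraries of both genes, were also the highest of their groups over the members as a whole, with median deviations from the group mean of 0.080 and 0.057 on the log2 scale, and over all long genes (0.056 and 0.049).

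The proximal promoters of the members were read as a description of sequence. RefSeq windows on GRCh38.p14, from 250 bases before to 50 after a start, were found for 39 of the 50 members, 61 windows in all. GGAAGT, the core of an ETS family site, was searched on both strands and is in 18 of the 61 windows and in 22.8% of all 35116 windows. CACGTG, the E-box, is in 2 of the 61 and 7.26% of all, and TGTGGT, the RUNX core, in 2 of the 61 and 13.1% of all. Below are a window of each of 3 members with the ETS letters, in its reverse complement ACTTCC, printed in capitals. They were picked among the members whose windows hold these letters, SMARCAD1 and SMARCAL1 as genes that fell with both drugs and SMARCD3 as one that rose with both.
SMARCAD1, chr4:94207615-94207914, plus strand: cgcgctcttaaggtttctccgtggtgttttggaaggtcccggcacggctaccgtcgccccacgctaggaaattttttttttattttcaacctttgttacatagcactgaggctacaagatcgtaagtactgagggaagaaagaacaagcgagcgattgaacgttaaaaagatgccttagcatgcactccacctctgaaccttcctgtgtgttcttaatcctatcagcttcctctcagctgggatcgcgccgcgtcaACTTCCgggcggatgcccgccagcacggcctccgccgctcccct
SMARCAL1, chr2:216412234-216412533, plus strand: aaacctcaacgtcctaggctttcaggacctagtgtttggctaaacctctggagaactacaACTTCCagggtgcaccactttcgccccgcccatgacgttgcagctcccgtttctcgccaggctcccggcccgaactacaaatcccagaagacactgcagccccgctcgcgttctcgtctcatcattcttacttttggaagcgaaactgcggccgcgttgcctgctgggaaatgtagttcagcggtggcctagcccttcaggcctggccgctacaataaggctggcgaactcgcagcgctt
SMARCD3, chr7:151276685-151276984, minus strand: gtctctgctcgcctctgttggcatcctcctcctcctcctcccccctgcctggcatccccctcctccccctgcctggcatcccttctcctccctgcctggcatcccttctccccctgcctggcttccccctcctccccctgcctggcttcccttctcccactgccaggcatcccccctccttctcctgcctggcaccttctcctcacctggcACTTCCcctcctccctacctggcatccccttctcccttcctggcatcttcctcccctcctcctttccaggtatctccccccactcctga
For each gene the window is the first listed that holds the letters, of 4 windows for SMARCAD1, 2 for SMARCAL1 and 3 for SMARCD3. The letters thus stand near the starts of genes that fell and of a gene that rose, and a match is not a binding site.

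Of the 7 ARID genes outside BAF, 2 were not tested. With ARV-825 3 were called up and 1 down, and with OTX015 4 up and 0 down. The shares of all tested genes were 35.8% up and 38.4% down with ARV-825, and 36.1% up and 33.5% down with OTX015. The untested ARID5B was lower with both drugs in a fit with no filter on low values (-0.32 with ARV-825 and -0.12 with OTX015). ARID4A, an RB-binding subunit of the SIN3 corepressor, had 12.5, 13.2 and 12.1 FPKM with ARV-825, 9.66, 10.2 and 10.9 FPKM with OTX015 and 5.83, 5.59 and 5.45 FPKM in control. Its 3 groups were apart, and it showed the largest rise of the members in both drug comparisons, 1.04 ± 0.064 with ARV-825 (SE, adjusted p = 1.2e-07) and 0.77 ± 0.064 with OTX015 (adjusted p = 1.74e-06). Its paralogue ARID4B rose by 0.19 and 0.43 for ARV-825 and OTX015, the ARV-825 call being lost without ARV-825 replicate 2 or control replicate 3 (adjusted p = 0.0511 and 0.0506). ARID5A, which stabilises cytokine mRNAs, had 20.1, 19.99 and 19.4 FPKM with ARV-825, 26.3, 24.6 and 25.1 FPKM with OTX015 and 14.9, 14.3 and 14.9 FPKM in control, rises of 0.41 (adjusted p = 1.28e-05) and 0.75 (adjusted p = 1.81e-07). ARID3A, a factor of the immunoglobulin enhancer in B cells, fell by 0.24 with ARV-825 and was at 0.035 with OTX015 (adjusted p = 0.551), whereas ARID3B rose by 0.46 with OTX015 and was at 0.038 with ARV-825 (adjusted p = 0.603). The lists that follow stand beside all tested genes, 35.8% up and 38.4% down with ARV-825, 36.1% up and 33.5% down with OTX015. The SIN3 partners had 4 up and 3 down of 8 with ARV-825 and 6 up and 1 down with OTX015, led by ING1 (0.77 with ARV-825 and 1.08 with OTX015). Partners of ATRX and HELLS had 1 up and 5 down of 8 with ARV-825 and 2 up and 5 down with OTX015. Of these the DNA methyltransferase gene DNMT3A fell by 0.99 with ARV-825 and 0.91 with OTX015, and DNMT3B rose by 1.00 with ARV-825 and 0.73 with OTX015. Other SNF2 ATPases had 5 up and 3 down of 11 with ARV-825 and 7 up and 2 down with OTX015, with SHPRH at -1.12 for ARV-825 and the repair ATPase ERCC6 at 0.64 for OTX015.

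ARV-825 and OTX015 differ in structure by the linker and cereblon ligand of ARV-825, and 46 gene-wise differences were tested at the matched dose and time. After SRCAP at -1.01, the members furthest below OTX015 in ARV-825-treated cells were CHD7 (-0.96), ARID2 (-0.91), SMARCAD1 (-0.79), INO80D (-0.77), SMARCB1 (-0.67), CHD1 (-0.59) and SMARCAL1 (-0.57), with adjusted p between 3.8e-06 and 0.00379. The 5 that were higher with ARV-825 were CHD3 (0.36), SMARCA2 (0.34), INO80B (0.31), SMARCD3 (0.30) and ARID4A (0.27), with adjusted p between 0.000135 and 0.02. INO80B lost the call without ARV-825 replicate 1 (0.23, adjusted p = 0.0802) or OTX015 replicate 1 (0.26, adjusted p = 0.0745). Of the 31 called differences 21 stayed called in every alternative tried. For SMARCA4, BAZ1A and INO80E the intervals given above bound the difference between the drugs. The partner subunits of INO80, SRCAP and TIP60 were 15 lower and 3 higher of 24 with ARV-825 than with OTX015, beside 33.4% lower and 24.7% higher of all tested genes, led by KAT5 at -1.10 (adjusted p = 2.28e-06), and the SIN3 partners 6 lower and 0 higher of 8, led by SAP30 at -0.95.

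**Figure D3:**
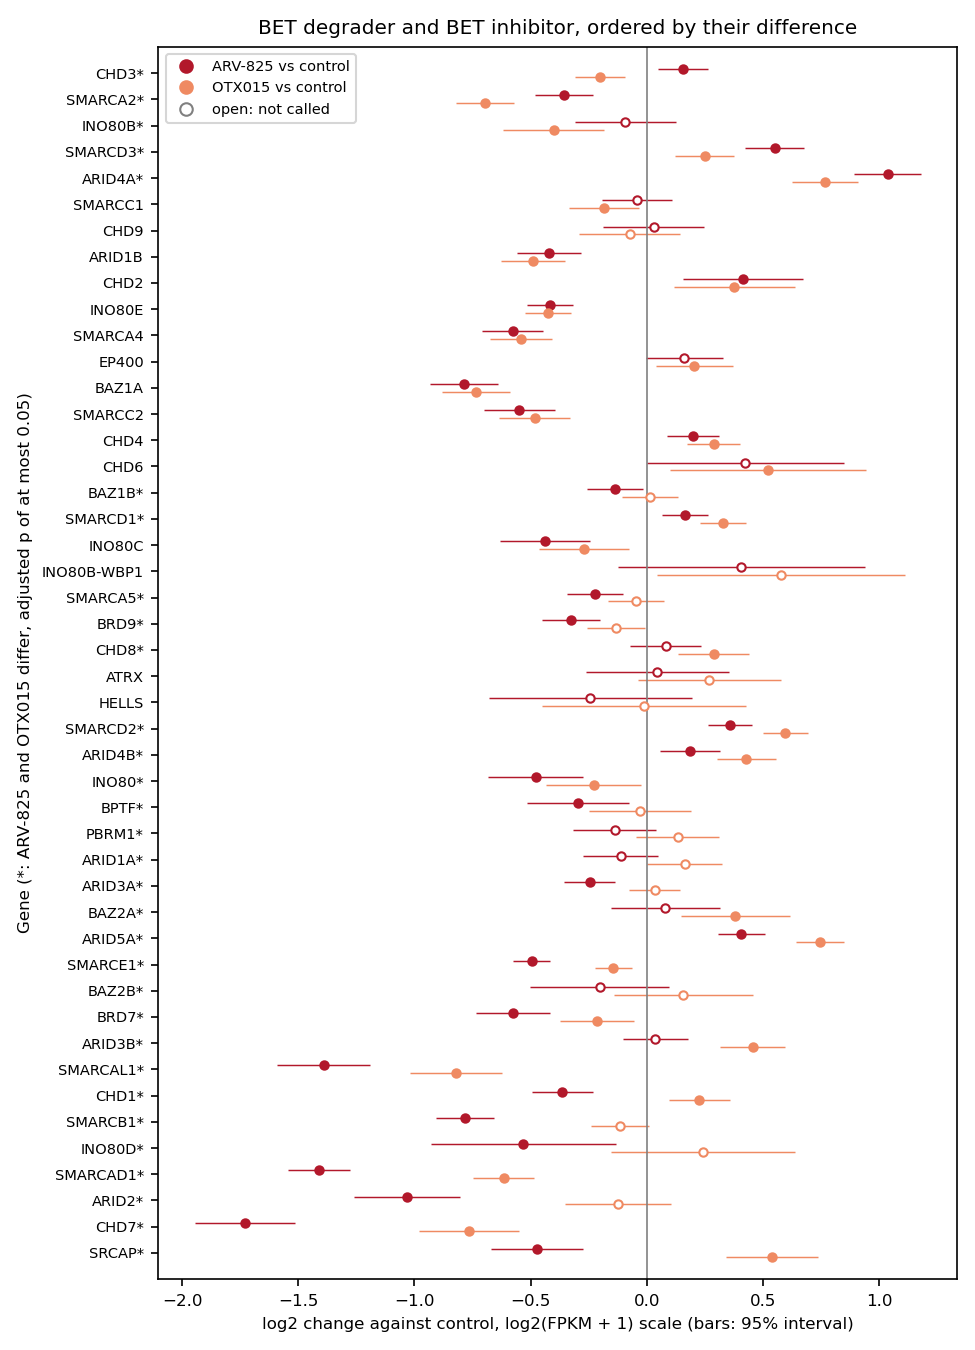
Log2 change against control (horizontal axis) with ARV-825 (dark red) and OTX015 (orange) for the 46 tested members, ordered by the difference between the drugs, with 95% intervals and open points where not called. SRCAP and CHD1 lie on opposite sides of 0 with the ARV-825 point on the left, and CHD3, at the top, with the ARV-825 point on the right.

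The balance between paralogues was followed as a share of their summed FPKM in each library. SMARCC1 made up 67.2% ± 0.366 of SMARCC1 and SMARCC2 with ARV-825, 63.8% ± 0.708 with OTX015 and 58.6% ± 1.36 in control (mean ± SD, n = 3 each), with no overlap between any pair of groups. ARID1A made up 73.5% ± 1.15 of the ARID1 pair with ARV-825, 78.1% ± 0.657 with OTX015 and 68.7% ± 0.197 in control, again without overlap. CHD4 made up 62.3% ± 0.239 of CHD4 and CHD3 with ARV-825, 69.4% ± 0.261 with OTX015 and 61.6% ± 1.04 in control. Here OTX015 stood apart, while ARV-825 and control overlapped. The share of SMARCA4 in the BAF ATPases was 44.3% ± 3.66 with ARV-825, 50.9% ± 0.587 with OTX015 and 48.2% ± 1.80 in control, and ARV-825 replicate 3, at 40.2%, was the lowest library. Among the 3 SMARCD genes, SMARCD3 held 22.6% ± 0.774 with ARV-825, 16.8% ± 0.238 with OTX015 and 19.4% ± 0.919 in control, and SMARCD2 52.6% ± 1.20 with ARV-825, 57.5% ± 0.363 with OTX015 and 52.3% ± 1.42 in control. SMARCD1 held 24.8% ± 0.728 with ARV-825, 25.8% ± 0.205 with OTX015 and 28.3% ± 0.814 in control. In the shRNA experiment SMARCA4 held 57.2% ± 1.06 with RUNX1 shRNA and 53.7% ± 0.654 with shNT, SMARCD1 34.1% ± 1.53 with RUNX1 shRNA and 30.6% ± 1.62 with shNT, and SMARCD2 53.8% ± 1.07 with RUNX1 shRNA and 57.9% ± 1.55 with shNT, all 3 without overlap. An exact two-sided permutation test of 3 against 3 libraries cannot give less than p = 0.1, which was reached wherever groups did not overlap, so none of these comparisons can pass 0.05 and the shares are descriptions.

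**Figure D4:**
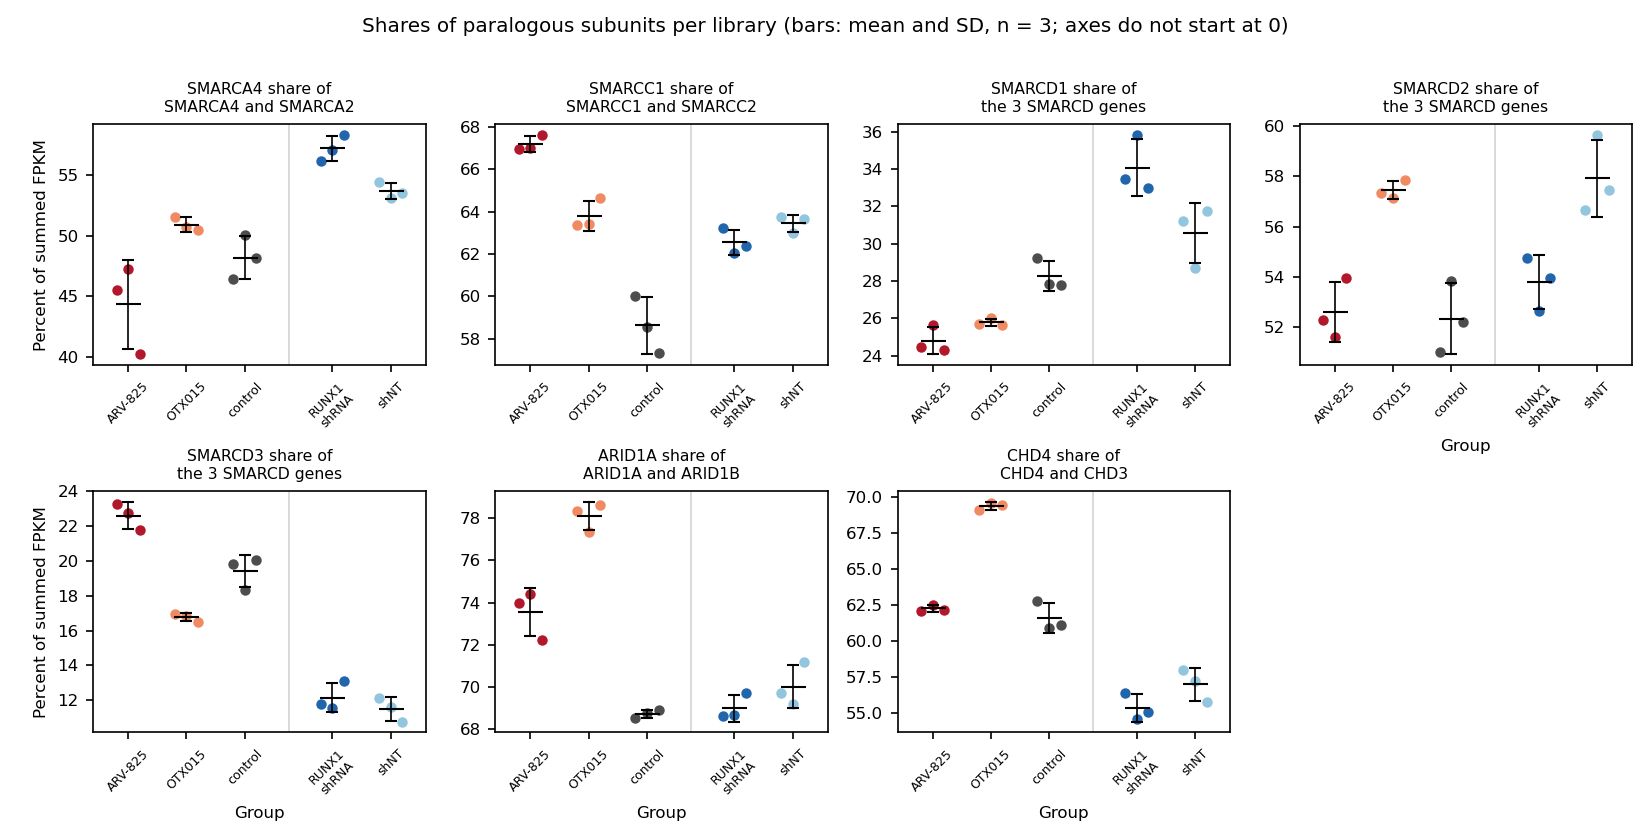
Share of paralogous subunits in their summed FPKM (vertical axes, percent, not from 0) per library in the 5 groups, with mean and SD of 3 libraries as bars. The SMARCC1 share is highest with ARV-825 and lowest in control, and the CHD4 share is highest with OTX015.

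After 72 h of RUNX1 shRNA more remodelling genes rose than fell. Of the 46 tested, 14 rose (30.4%) and 6 fell (13.04%), against 13.5% up and 13.8% down of the 10925 genes tested. The 20 called were 43.5% of the members, against 27.4% of all genes. By at least 0.5 on the log2 scale no member was called, against 3.23% of all genes. The median member change was 0.085 and that of all genes -0.0091. The count of members that rose was 9 without shNT replicate 2, 7 without shNT replicate 3 and 9 without RUNX1 shRNA replicate 1, and 11 of the 20 calls held in every alternative. Transcript length moved with this comparison as well. Of 2068 tested genes of 6000 bases or more 23.8% rose and 8.37% fell with RUNX1 shRNA, and of the 26 members that long 9 rose and 2 fell. The part of length in these calls was not tested.

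The members that fell with RUNX1 shRNA were led by SMARCE1 and INO80B. SMARCE1 had 86.03, 93.6 and 85.3 FPKM with RUNX1 shRNA and 118, 119 and 120.0 FPKM with shNT. All 3 RUNX1 shRNA libraries lay well below the tight shNT libraries, and the log2 change was -0.43 ± 0.037 (SE, adjusted p = 0.000132). In the annotation 19.8% of the exon bases of SMARCE1 lie under those of another gene of the same strand. INO80B had 6.55, 7.22 and 7.30 FPKM with RUNX1 shRNA and 9.78, 10.1 and 9.40 FPKM with shNT, a change of -0.43 ± 0.061 (adjusted p = 0.00153), while the readthrough entry INO80B-WBP1 averaged 3.70 ± 0.258 FPKM with RUNX1 shRNA and 3.71 ± 0.353 FPKM with shNT. ARID3B averaged 8.25 ± 0.403 FPKM with RUNX1 shRNA and 10.8 ± 0.368 FPKM with shNT (-0.36, adjusted p = 0.00242), and ARID5A 14.5 ± 0.609 FPKM with RUNX1 shRNA and 17.4 ± 0.311 FPKM with shNT (-0.24, adjusted p = 0.00568). BAZ1A fell by 0.18 (adjusted p = 0.0124). SMARCAL1 fell by 0.18 (adjusted p = 0.0396), a call lost without any 1 of RUNX1 shRNA replicates 1 and 2 and the 3 shNT libraries (adjusted p = 0.0674 to 0.144). No filter on low values or a replicate block lost it too (adjusted p = 0.0644 and 0.0532).

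The members that rose came from several complexes. CHD9 had 16.03, 15.9 and 13.96 FPKM with RUNX1 shRNA and 12.4, 11.2 and 10.3 FPKM with shNT, the largest rise (0.41 ± 0.076, SE, adjusted p = 0.00548). BPTF had 34.6, 35.3 and 30.9 FPKM with RUNX1 shRNA and 26.6, 24.98 and 25.9 FPKM with shNT (0.36 ± 0.054, adjusted p = 0.00184). In both genes all RUNX1 shRNA libraries lay above all shNT libraries. CHD2 rose by 0.36 (adjusted p = 0.0415), with 16.3, 14.9 and 12.6 FPKM with RUNX1 shRNA and 9.51, 12.6 and 11.2 FPKM with shNT, which overlapped, and the call was lost without RUNX1 shRNA replicate 1 or 2 or shNT replicate 1 or 3 (adjusted p = 0.0926 to 0.121). No filter on low values or a replicate block lost the call of CHD2 too (adjusted p = 0.127 and 0.0569). Of the named ATPases, CHD3 rose by 0.27 (adjusted p = 0.000372), at 69.03 ± 1.45 FPKM with RUNX1 shRNA and 57.1 ± 0.745 FPKM with shNT. HELLS rose by 0.32 (adjusted p = 0.00871), at 25.6 ± 2.46 FPKM with RUNX1 shRNA and 20.2 ± 0.626 FPKM with shNT. PBRM1 and SMARCD1 rose by 0.28 and 0.24 (adjusted p = 0.00338 and 0.00888).

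Several of the other rises lost their call when single libraries were left out, with no change of sign. ATRX had 18.02, 18.6 and 15.01 FPKM with RUNX1 shRNA and 14.9, 12.6 and 12.9 FPKM with shNT, a rise of 0.33 (adjusted p = 0.0249) lost without RUNX1 shRNA replicate 1 or 2 or shNT replicate 2 or 3 (adjusted p = 0.0736 to 0.0853). BAZ2B rose by 0.34, lost without RUNX1 shRNA replicate 2 or 3 or shNT replicate 2 or 3 (adjusted p = 0.0502 to 0.0644). EP400 rose by 0.26 (adjusted p = 0.0161), lost without shNT replicate 2 or 3 (adjusted p = 0.0584 and 0.0618). CHD4 rose by 0.17 (adjusted p = 0.0251), lost without RUNX1 shRNA replicate 1 or shNT replicate 3 (adjusted p = 0.0744 and 0.0741). SMARCA4 had 123, 121 and 122 FPKM with RUNX1 shRNA and 117, 115 and 113 FPKM with shNT, a small rise of 0.090 (adjusted p = 0.028) lost without RUNX1 shRNA replicate 1 or 3 or shNT replicate 2 or 3 (adjusted p = 0.0517 to 0.105). ARID4B rose by 0.27 and ARID3A by 0.17. The first was lost without any 1 of RUNX1 shRNA replicates 1 and 2 and the 3 shNT libraries (adjusted p = 0.0548 to 0.114), the second without shNT replicate 1 (adjusted p = 0.0521). With no filter on low values ATRX, BAZ2B, CHD4 and ARID4B lost their calls as well (adjusted p = 0.0604 to 0.108).

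Of the remaining named ATPases, SMARCA2 averaged 91.5 ± 4.36 FPKM with RUNX1 shRNA and 99.02 ± 2.06 FPKM with shNT (-0.11, adjusted p = 0.0541), and was called down without RUNX1 shRNA replicate 1 (adjusted p = 0.0208). SMARCA5 changed by 0.10 (adjusted p = 0.053). It was called up under median-ratio rescaling (adjusted p = 0.0442) and with no filter on low values (adjusted p = 0.0316). INO80 changed by 0.068 (adjusted p = 0.437). CHD7, the gene that fell most with ARV-825, had 25.7, 32.3 and 24.5 FPKM with RUNX1 shRNA and 23.4, 25.5 and 22.3 FPKM with shNT, which overlapped (0.20, adjusted p = 0.162; called with the replicate block, adjusted p = 0.0387). SMARCAD1 changed by -0.020 (95% interval -0.13 to 0.086). ARID5B, under the filter and known as a risk gene of childhood leukaemia, had 1.10, 1.22 and 0.950 FPKM with RUNX1 shRNA and 0.361, 0.469 and 0.493 FPKM with shNT, and 0.0303 ± 0.00487 FPKM with ARV-825, 0.178 ± 0.0526 FPKM with OTX015 and 0.284 ± 0.0192 FPKM in control. It was singled out after its values were seen. With no filter on low values limma gave it a log2 change of 0.54 with RUNX1 shRNA (adjusted p = 0.00528) and -0.32 with ARV-825 (adjusted p = 4.15e-05). With OTX015 it was -0.12 (adjusted p = 0.00913). The same setting called CHD5 up with ARV-825 (0.094, adjusted p = 0.00361). It called ARID3C and SMARCA1 down with RUNX1 shRNA (-0.086 and -0.044, adjusted p = 0.0459 and 0.0493).

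**Figure D5:**
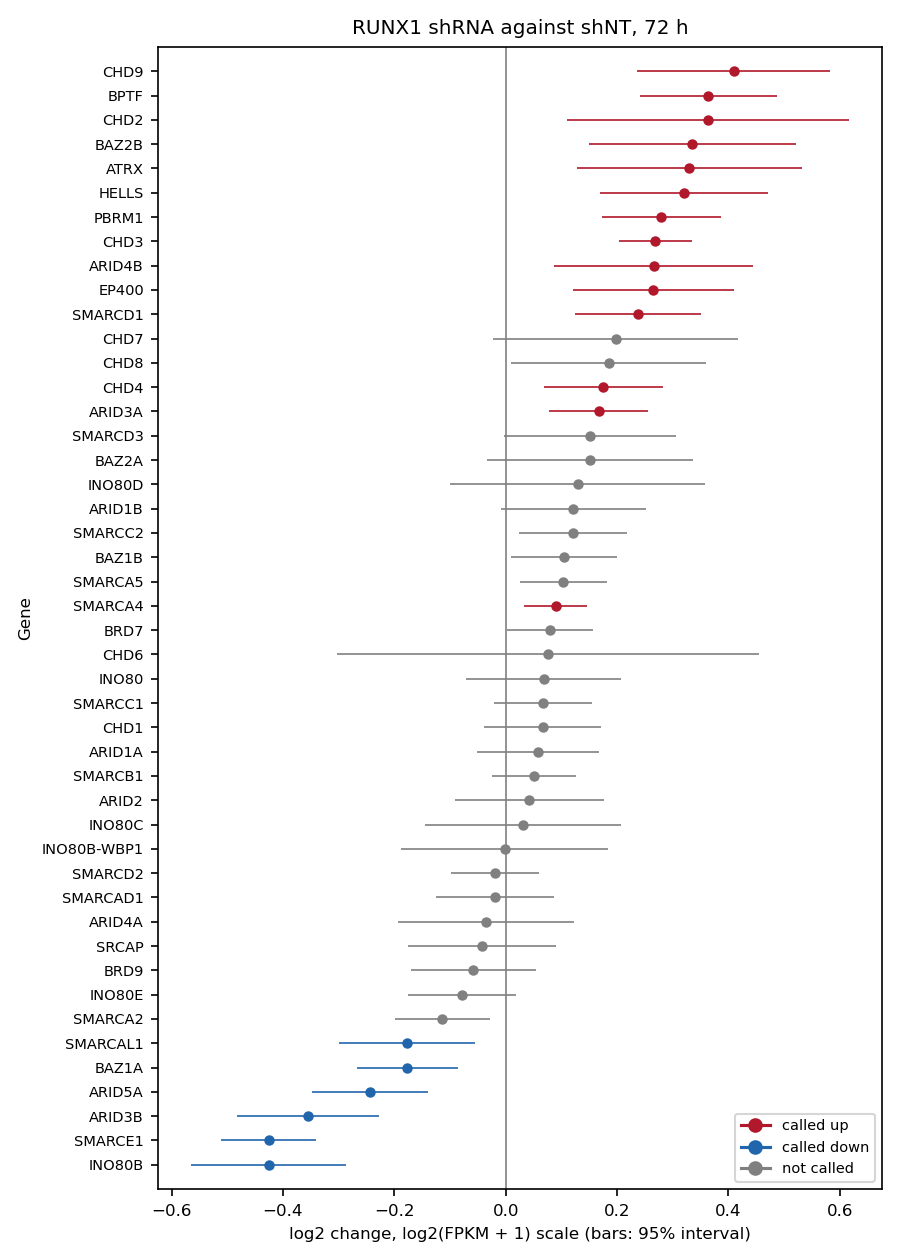
Log2 change (horizontal axis, with 95% interval) of the 46 tested members with RUNX1 shRNA against shNT, ordered by size, in red where called up, blue where called down and grey where not called. The 14 red points reach 0.41 at CHD9, and the 6 blue points reach -0.43 at SMARCE1 and INO80B.

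Set beside the drug values, 17 of the 23 members that fell with ARV-825 were not called with RUNX1 shRNA. Of the others, 3, BAZ1A, SMARCAL1 and SMARCE1, also fell with RUNX1 shRNA, and 3, ARID3A, BPTF and SMARCA4, rose. Of all tested genes 13.8% fell and 13.5% rose with RUNX1 shRNA, and the shares of these 23 members lie near those. ARID5A rose with both drugs and fell with RUNX1 shRNA. CHD2, CHD3, CHD4, ARID4B and SMARCD1 rose in both the ARV-825 and the RUNX1 shRNA comparisons. RUNX1 itself averaged 36.2 ± 2.39 FPKM with ARV-825 and 61.4 ± 2.09 FPKM in control, so it was lower in both. The experiments differ in time, 4 h and 72 h, and in normalisation, and no difference between them was tested. Such overlaps were not counted over all genes. The RUNX1 shRNA calls of SMARCAL1, SMARCA4, ARID3A, CHD2, CHD4 and ARID4B were lost when single libraries were left out, as given above. Against the 13.5% up and 13.8% down of all tested genes, the partner lists gave these calls with RUNX1 shRNA: 2 up and 1 down of 13 BAF partners, 3 up and 2 down of 7 ISWI partners, 3 up and 1 down of 13 NuRD partners, 2 up and 3 down of 24 INO80, SRCAP and TIP60 partners, 0 up and 1 down of 8 SIN3 partners, 1 up and 2 down of 8 ATRX and HELLS partners, and 1 up and 0 down of 11 other SNF2 ATPases. The largest was ZMYND8 of NuRD, at 18.2 ± 0.391 FPKM with RUNX1 shRNA and 12.3 ± 0.534 FPKM with shNT (0.54, adjusted p = 0.000132), and BCL11A changed by -0.37 (adjusted p = 0.0041).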

How the data were processed

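Total RNA of OCI-AML5 cells was isolated with an Ambion kit, treated with DNase and made into libraries with an Illumina kit, per the labels' protocols, which state neither RNA selection nor strand. The authors deposited 1 table for the 9 drug libraries and 1 for the 6 shRNA libraries, each with 19620 protein-coding entries, of which 16 copies on the Y chromosome were left out. The values were read as FPKM that the authors quantile normalised within each table: no header names the unit, Cufflinks 2.0, TopHat2 2.0 and hg19 are listed per the submitters' processing notes, and 93.0% to 97.8% of a library's values recur in its table. Such values hide a change in a cell's total RNA, and without counts no depth or counting interval can be given.

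Groups follow the treatment labels. Log2(FPKM + 1), with a pseudocount of 1 and a mean of at least 1 FPKM, was fitted with limma 3.58.1 in R 4.3.3 (lmFit, eBayes with trend, two-sided, Benjamini-Hochberg over all tested genes, threshold 0.05), the 9 drug libraries in 1 fit and the 6 shRNA libraries in another. This scale understates changes of low genes. The p-values reflect the scatter of these libraries, which may be technical in part. The fit was tested on simulated data. Alternatives were a pseudocount of 0.1 or 5, no filter or 5 FPKM, median-ratio rescaling, a fit of 2 groups alone, a replicate block, and leaving out each library. Library values, or means with SD, are given for members called with a change of at least 0.5, or for the 5 largest called if fewer. Also named were SMARCA4, SMARCA2, SMARCA5, CHD4, INO80, EP400, ATRX and HELLS, and members called in opposite directions. Some of these are given by their log2 change alone. The members, roles and partner lists were chosen with earlier results of these data known. Length classes were added after the values were seen. Transcript lengths and exon overlaps come from GENCODE on a build other than hg19, and no coordinate was converted.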

Additional observations from a re-analysis of the deposited data

How the results depend on the processing

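No called member changed sign under the alternatives tried. The SMARCD2 share difference between ARV-825 and control, smaller than the replicate spread, turned negative without ARV-825 replicate 3 or control replicate 1. Of the named values 888 kept their side of the threshold or stayed within the replicate spread, 54 calls were lost in an alternative, and of the counts 177 stayed within 1.5 times. The exceptions were the members up with RUNX1 shRNA, 14 in all and 7 to 17 when 1 library was left out (9 without shNT replicate 2, 7 without shNT replicate 3, 9 without RUNX1 shRNA replicate 1); the cause was not tested. Calls that held in every alternative were 27 of 32 for ARV-825, 24 of 31 for OTX015, 21 of 31 for ARV-825 against OTX015 and 11 of 20 for RUNX1 shRNA. The libraries share replicate numbers, and deviations of same-numbered libraries correlated at -0.321 to 0.0613. Those of libraries with different numbers correlated at -0.224 to 0.409. With 3 libraries per group these correlations cannot settle whether the libraries were paired. With a replicate block, 9 members were up and 22 down with ARV-825, 13 up and 14 down with OTX015, 5 up and 23 down between the drugs, and 14 up and 5 down with RUNX1 shRNA. Over all genes the block gave 7771, 7262, 5884 and 2585 calls in the same order of comparisons. Depth is unknown and sets no limit that can be stated.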
